A study of Mus musculus with 8 samples.

Results

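The expressed solute carrier (SLC) genes of B16F10 cells, a mouse melanoma line, are described here across a hairpin knockdown and an interferon-gamma (IFN-γ) treatment. Members were the entries of the deposited count table whose symbol begins with Slc and a number and whose mean over the 8 libraries was at least 5 CPM, the reads of a gene scaled to a fixed library total. The Slc16 monocarboxylate carriers and the pigment cell carriers Slc45a2 and Slc24a5 were left out by the rule. Of 377 SLC symbols among 45583 entries, 16 were left out in this way, 206 lay under the limit, and 155 were members. The members were thus chosen by their mean level, which is no finding, and not by the contrasts between groups. The members just inside the limit were Slc9a9 at a mean of 5.38 CPM, Slc22a18 at 5.53 CPM, Slc26a11 and Slc2a8 at 5.61 CPM and Slc25a35 at 5.68 CPM. Just outside lay Slc25a29 at 4.78 CPM, Slc46a3 at 4.68 CPM, Slc26a6 at 4.62 CPM, Slc25a43 at 4.28 CPM and Slc41a3 at 4.23 CPM. All 155 members passed the filter on low counts and were tested. In 148 members the mean of each of the 4 groups was at 5 CPM or more, and the other 7 were members through their higher groups.

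RNA was sequenced from 4 groups of 2 libraries each: shDRG2 cells with IFN-γ, shDRG2 cells without it, pLKO cells with IFN-γ and pLKO cells without it. The shDRG2 cells carry a hairpin against Drg2, which encodes a GTP-binding protein, and the pLKO cells are the control line with the hairpin vector. Treatment was IFN-γ at 5 ng/ml for 24 h. Each line is represented once and the hairpin sequence is not stated, so loss of DRG2, other effects of the hairpin and differences between the lines cannot be told apart. Nothing in the labels states that replicates came from separate cultures, and the p-values cover only the spread between these libraries, which may be technical.

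SLC proteins carry small solutes across membranes. Plasma membrane members bring in amino acids, sugars, metals, vitamins and ions, often in exchange for another solute or driven by an ion gradient. Slc25 carriers sit mostly in the inner mitochondrial membrane, and many Slc35 carriers move nucleotide sugars into the Golgi or endoplasmic reticulum. IFN-γ signals through JAK kinases at its receptor, and promoters of its target genes often hold GAS or IRF sites.

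By the role of their families, the members comprised 33 mitochondrial carriers, 26 amino acid and peptide carriers, 22 nucleoside and nucleotide sugar carriers, 20 metal and heme carriers and 19 carriers of inorganic ions. A further 17 were vitamin, lipid and organic ion carriers, 13 were of the sugar and sugar phosphate families, 3 carried phosphate or organic anions, and 2 were regulators. The regulators, Slc9a3r1 and Slc9a3r2, encode scaffold proteins and are not carriers, and Slc7a6os and Slc4a1ap, counted with the families they are named for, are not carriers either.

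Libraries held 25422758 to 36654519 counts, and the members together took 1.04% to 1.204% of a library. Drg2 averaged 9.01 ± 0.469 CPM in shDRG2 cells, against 72.5 ± 5.44 CPM in pLKO cells, and 7.06 ± 0.845 CPM in shDRG2 cells with IFN-γ, against 68.3 ± 5.64 CPM in pLKO cells with IFN-γ (SD, n = 2 each). All 7 melanocytic markers were detected, with a summed level of 9340 to 10100 CPM in shDRG2 cells with IFN-γ, 14100 to 14800 CPM in shDRG2 cells without it, 10800 to 11000 CPM in pLKO cells with IFN-γ and 13000 to 13400 CPM in pLKO cells without it. Among immune markers, Cd3e, Adgre1 and Itgam were at 0 in all 8 libraries, and Ptprc was at most 0.0305 CPM. Cdh5 and Kdr among 4 endothelial markers, and Epcam and Krt18 among 4 epithelial ones, were also at 0, and these lists summed to at most 0.617 and 0.682 CPM. The 5 fibroblast markers, mostly through the collagen gene Col1a2, summed to 3.98 to 5.59 CPM in shDRG2 cells with IFN-γ, 18.3 to 19.3 CPM in shDRG2 cells without it, 5.44 to 5.58 CPM in pLKO cells with IFN-γ and 16.4 to 18.8 CPM in pLKO cells without it. The part of these marker differences in the IFN-γ results below was not tested. In bulk RNA, fewer cells of a type and less RNA per cell cannot be told apart.

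Per kilobase of exon, the most abundant members were the mitochondrial ADP/ATP exchangers Slc25a5 at 369 CPM per kb and Slc25a4 at 179 CPM per kb, averaged over all libraries. Next came the taurine carrier Slc6a6 at 124 CPM per kb, the large neutral amino acid exchanger Slc7a5 at 90.5 CPM per kb and the mitochondrial phosphate carrier Slc25a3 at 81.2 CPM per kb. The lysosomal amino acid sensor Slc38a9 had 0.877 CPM per kb, the lowest of the 155. These levels chose or ordered the members and are given as a description. The zinc carrier Slc39a7 stood at 64.9 CPM per kb, but 80.7% of its exon length is shared with the annotated gene Gm20427 on the same strand, so its level is uncertain.

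Windows of the 250 bases before a RefSeq transcription start (GRCm38.p6) were available for 119 members, and 4 are printed for the values described further on. Slc2a6 had the largest IFN-γ rise in shDRG2 cells. Slc25a22, which rose, and Slc37a1, which fell, both hold an IRF match, and Slc7a11, which encodes the cystine exchanger xCT, holds the most matches but passed no comparison. The Slc25a22 window was chosen because it holds a match, and any window of that gene without one was not printed. The windows lie at chr2:27027999-27028248 (minus strand), chr7:141435376-141435625 (minus), chr17:31295974-31296223 (plus) and chr3:50443614-50443863 (minus). Capitals mark the letters of a match on either strand to GAS (TTCNNNGAA), IRF (GAAA, any 2 bases, GAAA) or CARE (TGATGNAA), the last the form bound by ATF4.
Slc2a6: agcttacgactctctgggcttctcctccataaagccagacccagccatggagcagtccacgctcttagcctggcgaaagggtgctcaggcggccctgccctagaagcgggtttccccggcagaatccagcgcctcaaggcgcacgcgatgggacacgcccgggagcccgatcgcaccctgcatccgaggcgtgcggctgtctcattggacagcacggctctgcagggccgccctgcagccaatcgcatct
Slc25a22: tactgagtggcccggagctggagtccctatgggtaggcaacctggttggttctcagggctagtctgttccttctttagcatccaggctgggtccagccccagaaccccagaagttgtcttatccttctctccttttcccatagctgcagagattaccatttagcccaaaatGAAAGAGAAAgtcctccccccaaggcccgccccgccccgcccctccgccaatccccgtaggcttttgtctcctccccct
Slc37a1: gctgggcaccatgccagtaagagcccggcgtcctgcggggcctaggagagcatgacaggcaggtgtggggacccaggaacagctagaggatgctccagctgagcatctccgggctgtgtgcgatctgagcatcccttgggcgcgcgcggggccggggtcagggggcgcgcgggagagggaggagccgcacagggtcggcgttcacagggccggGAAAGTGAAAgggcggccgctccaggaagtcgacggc
Slc7a11: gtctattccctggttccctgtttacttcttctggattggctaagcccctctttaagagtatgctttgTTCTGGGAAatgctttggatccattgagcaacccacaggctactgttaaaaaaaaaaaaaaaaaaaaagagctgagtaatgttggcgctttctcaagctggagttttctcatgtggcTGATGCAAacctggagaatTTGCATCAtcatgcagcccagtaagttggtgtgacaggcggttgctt
The Slc2a6 window holds no match. The IRF match begins 79 bases before the start in Slc25a22 and 37 bases before it in Slc37a1, and both of these starts lie inside the GENCODE gene. Slc7a11 has a GAS match at 183 bases and CARE matches at 66 and 47 bases before its start.

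Knockdown of Drg2 came with a difference in 7 of the 155 members, 5 without IFN-γ and 6 with it. Without IFN-γ, Slc2a4, Slc44a3 and Slc40a1 were higher in shDRG2 cells, and Slc35f1 and Slc4a7 were lower. These 5 are 3.23% of the members, against 1.2% of all 13500 genes tested at an adjusted p below 0.05, of which 0.467% were higher and 0.733% lower. With IFN-γ, Slc44a3, Slc2a4 and Slc40a1 were higher in shDRG2 cells, and Slc7a8, Slc12a9 and Slc4a7 were lower, a split of 3 and 3 that became 2 higher and 1 lower with library size as the sole scaling. These 6 are 3.87% of the members, against 1.67% of all genes tested, of which 0.504% were higher and 1.17% lower. Slc7a8 had a mean under 5 CPM in treated shDRG2 cells and was a member through its other groups. Among the 148 members with every group mean at 5 CPM or more, 5 passed with IFN-γ (3.38%), 3 higher and 2 lower. The comparisons without and with IFN-γ share no library, but the spread of each gene was estimated over all 8 libraries. Their calls are therefore not independent. In both, 4 members passed with the same sign, which is 80.0% of the calls without IFN-γ and 66.7% of those with it. The matching overlap among all genes called, 162 without IFN-γ and 226 with it, was not computed. Whether the members' overlap differs from that of other genes was therefore not tested. The median log2 fold change over all members was -0.01 without IFN-γ and 0.02 with it, against 0.01 and 0.00 over all genes tested. Adjusted p-values throughout are from edgeR's quasi-likelihood test with Benjamini-Hochberg adjustment over all 13500 genes.

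Slc44a3, of the choline transporter-like family, had the lowest adjusted p of the members in both comparisons (ENSMUSG00000039865.8, chromosome 3, 121459528 to 121532404, minus strand, GRCm38). Its level was 147 and 145 CPM in shDRG2 cells, against 72.5 and 75.9 CPM in pLKO cells. With IFN-γ it was 144 and 136 CPM in shDRG2 cells, against 76.6 and 83.6 CPM in pLKO cells. Every shDRG2 library stood well above every pLKO library. The fold was 1.97 without IFN-γ (log2 0.97, SE 0.08, adjusted p = 0.000504) and 1.75 with it (log2 0.80, SE 0.08, adjusted p = 0.000935). Slc44a3 was the only knockdown call among the members that passed in all 14 alternative fits of both comparisons, which change the scaling, the filter, the tool or the replicate block or leave out 1 library. IFN-γ itself left it without a call in either line (-0.06 in shDRG2 cells and 0.11 in pLKO cells on the log2 scale). The summed level of the 17 vitamin, lipid and organic ion carriers was 548 and 509.7 CPM in shDRG2 cells, against 458 and 455 CPM in pLKO cells. Without Slc44a3, the other 16 summed to 401 and 365 CPM in shDRG2 cells, against 386 and 379 CPM in pLKO cells, and these ranges overlap.

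Slc2a4 encodes GLUT4, the insulin-responsive glucose carrier of muscle and fat (chromosome 11, 69942539 to 69948188, minus strand). It stood at 22.5 and 20.4 CPM in shDRG2 cells, against 9.56 and 11.4 CPM in pLKO cells, and with IFN-γ at 10.8 and 14.3 CPM in shDRG2 cells, against 7.16 and 7.28 CPM in pLKO cells. The lines did not overlap under either treatment, and the treated shDRG2 libraries lay near the untreated pLKO ones. The fold was 2.04 without IFN-γ (log2 1.03, SE 0.15, adjusted p = 0.00991) and 1.74 with it (log2 0.80, SE 0.15, adjusted p = 0.0321). The call without IFN-γ ended without shDRG2 replicate 1 (adjusted p = 0.117) and without pLKO replicate 1 (0.101). The call with IFN-γ ended with library size as the sole scaling (adjusted p = 0.0558), without shDRG2 replicate 1 (0.051), without IFN-γ-treated shDRG2 replicate 2 (0.212), without IFN-γ-treated pLKO replicate 1 (0.127) and without IFN-γ-treated pLKO replicate 2 (0.115). The widely expressed glucose carrier Slc2a1 (GLUT1) had 71.7 and 61.03 CPM in shDRG2 cells, against 50.99 and 59.7 CPM in pLKO cells, and passed in neither comparison (log2 0.26, adjusted p = 0.407 without IFN-γ and log2 0.22, adjusted p = 0.544 with it).

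Slc40a1 encodes ferroportin, the cellular iron exporter (chromosome 1, 45908068 to 45926523, minus strand). Its level was 117 and 103 CPM in shDRG2 cells, against 72.7 and 66.3 CPM in pLKO cells. With IFN-γ it was 161 and 160.3 CPM in shDRG2 cells, against 104 and 104 CPM in pLKO cells. Treated shDRG2 libraries were highest, untreated shDRG2 and treated pLKO libraries lay at a like level, and untreated pLKO libraries were lowest. Between the lines the fold was 1.58 without IFN-γ (log2 0.66, SE 0.08, adjusted p = 0.00491) and 1.54 with it (log2 0.63, SE 0.08, adjusted p = 0.00517). IFN-γ raised it in shDRG2 cells (log2 0.55, adjusted p = 0.000615) and in pLKO cells (log2 0.58, adjusted p = 0.000492), and these IFN-γ calls passed in all 14 alternative fits. The knockdown call without IFN-γ ended without shDRG2 replicate 1 (adjusted p = 0.0574) and without pLKO replicate 2 (0.0567), and that with IFN-γ ended without IFN-γ-treated shDRG2 replicate 1 (adjusted p = 0.0645) and without IFN-γ-treated shDRG2 replicate 2 (0.0531).

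**Figure D1:**
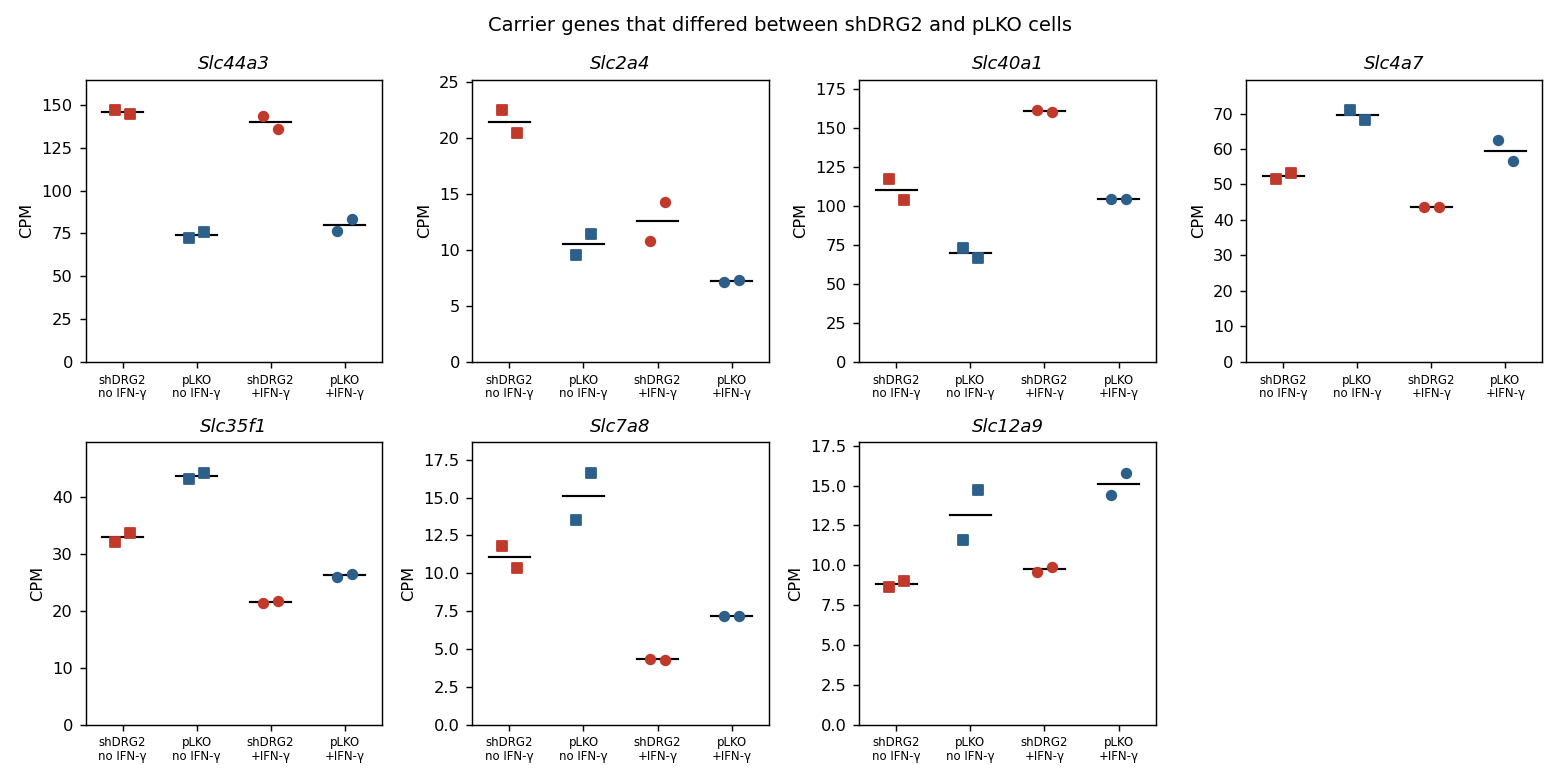
CPM (y axis, from 0) of the 7 carrier genes that passed a knockdown comparison, by group (x axis). Each point is a library, red for shDRG2 and blue for pLKO, squares without IFN-γ and circles with it, and the bar is the group mean. Slc44a3 shows the widest gap, with every shDRG2 library at 136 CPM or more and every pLKO library at 83.6 CPM or less.

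The other members called were lower in shDRG2 cells. Slc4a7, a sodium-bicarbonate cotransporter that raises the pH of the cell (chromosome 14, 14702279 to 14799940, plus strand), had 51.6 and 53.4 CPM in shDRG2 cells, against 71.01 and 68.1 CPM in pLKO cells. With IFN-γ it had 43.7 and 43.7 CPM in shDRG2 cells, against 62.4 and 56.6 CPM in pLKO cells. No shDRG2 library reached a pLKO library (log2 -0.41, SE 0.08, adjusted p = 0.0378 without IFN-γ, and log2 -0.45, SE 0.08, adjusted p = 0.0216 with it). Slc35f1, an orphan member of the Slc35 family (chromosome 10, 52690533 to 53111622, plus strand), had 32.2 and 33.7 CPM in shDRG2 cells, against 43.3 and 44.3 CPM in pLKO cells (log2 -0.41, SE 0.08, adjusted p = 0.0348). With IFN-γ it had 21.4 and 21.7 CPM in shDRG2 cells, against 25.99 and 26.6 CPM in pLKO cells, and did not pass (log2 -0.29, adjusted p = 0.131). Both calls without IFN-γ were lost on leaving out single libraries. That of Slc4a7 ended without shDRG2 replicate 1 (adjusted p = 0.265), without shDRG2 replicate 2 (0.113), without pLKO replicate 1 (0.212), without pLKO replicate 2 (0.143), without IFN-γ-treated shDRG2 replicate 1 (0.0721) and without IFN-γ-treated shDRG2 replicate 2 (0.0724). That of Slc35f1 ended without shDRG2 replicate 1 (adjusted p = 0.272), without shDRG2 replicate 2 (0.108), without pLKO replicate 1 (0.156), without pLKO replicate 2 (0.196), without IFN-γ-treated shDRG2 replicate 1 (0.0691) and without IFN-γ-treated shDRG2 replicate 2 (0.0687). With IFN-γ the Slc4a7 call ended without IFN-γ-treated shDRG2 replicate 1 (adjusted p = 0.182), without IFN-γ-treated shDRG2 replicate 2 (0.134) and without IFN-γ-treated pLKO replicate 1 (0.129).

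Slc7a8 encodes LAT2, a light chain that exchanges neutral amino acids (chromosome 14, 54722209 to 54781946, minus strand). With IFN-γ it stood at 4.36 and 4.27 CPM in shDRG2 cells, against 7.16 and 7.16 CPM in pLKO cells (log2 -0.73, SE 0.15, adjusted p = 0.0419). Without IFN-γ its level was 11.8 and 10.3 CPM in shDRG2 cells, against 13.5 and 16.6 CPM in pLKO cells, and it did not pass (log2 -0.44, adjusted p = 0.174). Slc12a9, of the cation-chloride cotransporter family (chromosome 5, 137314558 to 137333597, minus strand), was at 9.56 and 9.90 CPM in shDRG2 cells with IFN-γ, against 14.4 and 15.8 CPM in pLKO cells with IFN-γ (log2 -0.63, SE 0.13, adjusted p = 0.0467). Without IFN-γ its level was 8.61 and 9.03 CPM in shDRG2 cells, against 11.6 and 14.7 CPM in pLKO cells, and it did not pass (log2 -0.58, adjusted p = 0.079). Both calls lay near the threshold. That of Slc7a8 ended with library size as the sole scaling (adjusted p = 0.0563), without shDRG2 replicate 1 (0.0567), without shDRG2 replicate 2 (0.0548), without IFN-γ-treated shDRG2 replicate 1 (0.224), without IFN-γ-treated shDRG2 replicate 2 (0.213), without IFN-γ-treated pLKO replicate 1 (0.133) and without IFN-γ-treated pLKO replicate 2 (0.136). That of Slc12a9 ended with library size as the sole scaling (adjusted p = 0.0767), with upper-quartile scaling (0.0535), without shDRG2 replicate 1 (0.0709), without shDRG2 replicate 2 (0.0696), without IFN-γ-treated shDRG2 replicate 1 (0.298), without IFN-γ-treated shDRG2 replicate 2 (0.202), without IFN-γ-treated pLKO replicate 1 (0.101) and without IFN-γ-treated pLKO replicate 2 (0.201).

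The number of members called between the lines rested on single libraries. Without IFN-γ it was 1 without shDRG2 replicate 1, 3 without shDRG2 replicate 2, 2 without pLKO replicate 1, 2 without pLKO replicate 2, and 3 without either IFN-γ-treated shDRG2 library. With IFN-γ it was 2 without IFN-γ-treated shDRG2 replicate 1, 1 without IFN-γ-treated shDRG2 replicate 2, 2 without IFN-γ-treated pLKO replicate 1, 3 without IFN-γ-treated pLKO replicate 2, and 3 without shDRG2 replicate 1.

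All 5 members on chromosome 14 had negative log2 fold changes in both knockdown comparisons, with a median of -0.44 without IFN-γ and -0.43 with it. Besides Slc4a7 and Slc7a8, these were the zinc and iron importer Slc39a14, the mitochondrial iron importer Slc25a37 and the mitochondrial carrier Slc25a30, which passed in neither. Slc25a37 was at 29.8 and 43.1 CPM in shDRG2 cells, against 46.1 and 59.3 CPM in pLKO cells (log2 -0.54, adjusted p = 0.235), and at 30.5 and 38.8 CPM in shDRG2 cells with IFN-γ, against 42.5 and 50.8 CPM in pLKO cells with IFN-γ (log2 -0.43, adjusted p = 0.395). Within each replicate number the shDRG2 library was the lower. Slc25a30 gave -0.51 and -0.22, and Slc39a14 gave -0.19 and -0.25. All 436 tested genes with a position on chromosome 14 had a median of -0.28 without IFN-γ and -0.28 with it, and 6.65% and 10.3% of them passed. For 12366 tested genes on other chromosomes the medians were 0.01 and 0.01, and 1.08% and 1.44% passed. The 150 members on other chromosomes had medians of 0.01 and 0.03. The part of the chromosome-wide difference in the values of these 5 members was not tested.

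**Figure D2:**
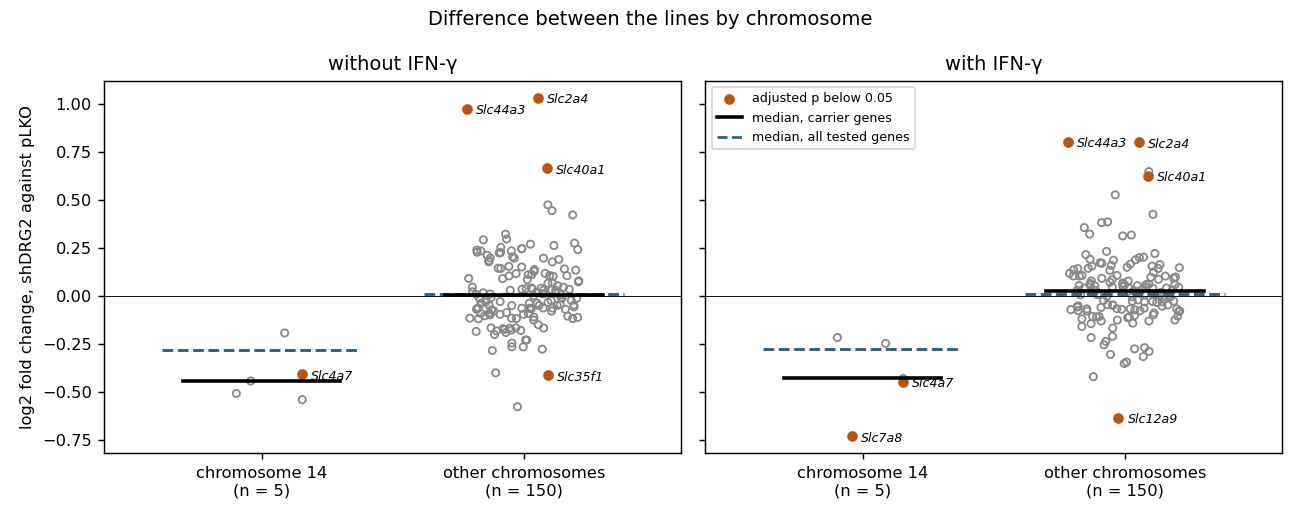
Log2 fold change of shDRG2 against pLKO (y axis) for the carrier genes on chromosome 14 and on other chromosomes (x axis), without IFN-γ on the left and with it on the right. Each point is a gene, black bars are medians of the carrier genes and dashed blue bars are medians of all tested genes. All 5 chromosome 14 members lie below 0 in both panels, as does the dashed median of -0.28.

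IFN-γ came with more differences in both lines. In shDRG2 cells 57 members passed, of which 25 rose and 32 fell, or 36.8% against 31.4% of all genes tested (16.2% higher and 15.2% lower). In pLKO cells 56 passed, of which 23 rose and 33 fell, or 36.1% against 28.1% of all genes tested (15.4% higher and 12.7% lower). These counts include the 7 members that met the limit through their higher groups. Among the 148 members with every group mean at 5 CPM or more, 55 passed in shDRG2 cells (25 rose and 30 fell, 37.2%). In pLKO cells 53 of the 148 passed (22 rose and 31 fell, 35.8%). Among the 10038 genes tested at a mean of 5 CPM or more, the level that chose the members, 34.8% passed in shDRG2 cells and 31.4% in pLKO cells, so the members' shares lie near the background. The median log2 fold change of the members was -0.01 in shDRG2 cells and -0.04 in pLKO cells, against 0.00 and 0.01 over all genes tested. A called change of 2-fold or more was seen in 8 members in shDRG2 cells and 6 in pLKO cells, or 6 and 5 among the 148. Over the 10038 genes at 5 CPM or more it was seen in 646 in shDRG2 cells and 559 in pLKO cells. Over all 13500 genes tested it was seen in 1269 and 1096.

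The comparisons within the lines share no library, but they too share the estimate of the spread, so their calls are not independent. In both lines 45 members passed, all with the same sign, 20 upward and 25 downward. These are 78.9% of the members called in shDRG2 cells and 80.4% of those called in pLKO cells. Over all genes tested, 4233 passed in shDRG2 cells and 3796 in pLKO cells. Of these, 3252 passed in both lines, 3251 of them with the same sign, so such overlap is not particular to the members. Of the 45, 28 passed in all 14 alternative fits of both comparisons, 11 that rose and 17 that fell. A further 12 passed in shDRG2 cells alone, 11 in pLKO cells alone, and 87 in neither. Single libraries moved the counts: 37 members passed in shDRG2 cells without IFN-γ-treated shDRG2 replicate 1, and in pLKO cells 35 passed without pLKO replicate 1 and 33 without IFN-γ-treated pLKO replicate 2. The split moved with them. In shDRG2 cells it was 24 rises and 22 falls without shDRG2 replicate 1, 14 and 30 without shDRG2 replicate 2, and 13 and 24 without IFN-γ-treated shDRG2 replicate 1. In pLKO cells it was 21 and 21 without pLKO replicate 2, 14 and 21 without pLKO replicate 1, and 15 and 18 without IFN-γ-treated pLKO replicate 2.

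**Figure D3:**
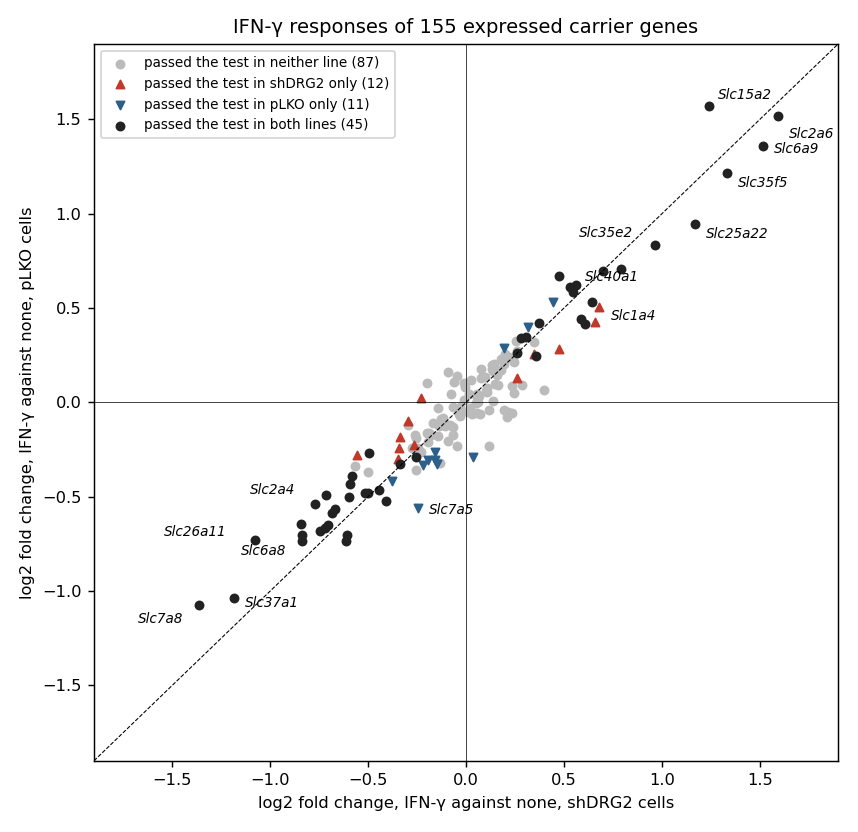
Log2 fold change of IFN-γ against none in shDRG2 cells (x axis) and in pLKO cells (y axis) for the 155 carrier genes, coloured by the lines in which a gene passed at an adjusted p below 0.05. The dashed line marks equal changes, and the 45 genes that passed in both lines lie in the upper right or lower left quadrant, from Slc2a6 (1.59 and 1.52) to Slc7a8 (-1.36 and -1.07).

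By role, calls went in both directions in each of the larger classes, read here beside 31.4% of all genes called in shDRG2 cells and 28.1% in pLKO cells. Among genes at a mean of 5 CPM or more, the level that chose the members, these shares were 34.8% and 31.4%. Of 13 sugar carriers, 2 rose and 4 fell in each line, and falls outnumbered rises in all 14 alternative fits. Of 20 metal carriers, 6 rose and 3 fell in shDRG2 cells, and 6 rose and 2 fell in pLKO cells. Of 26 amino acid carriers, 4 rose and 8 fell in shDRG2 cells, and 3 rose and 10 fell in pLKO cells. Of 33 mitochondrial carriers, 5 rose and 3 fell in each line. Of 22 nucleoside and nucleotide sugar carriers, 3 rose and 7 fell in shDRG2 cells, and 4 rose and 6 fell in pLKO cells. The 19 inorganic ion carriers gave 2 rises and 4 falls in shDRG2 cells, and 1 rise and 4 falls in pLKO cells. The 17 vitamin, lipid and organic ion carriers gave 3 rises and 2 falls in shDRG2 cells, and 2 of each in pLKO cells. None of the 3 anion carriers passed.

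In the sugar class single calls were lost in some fits, as given below for Slc2a4 and Slc50a1, though falls stayed more frequent. In the other classes the counts moved in the fits that follow, and some of the balances evened out or turned. The metal class in shDRG2 cells had 3 rises and 3 falls without shDRG2 replicate 2, and 3 rises and 2 falls without either IFN-γ-treated shDRG2 library. In pLKO cells it had 3 rises and 1 fall without pLKO replicate 1. The amino acid class in shDRG2 cells had 7 rises and 7 falls with no filter on low counts. The nucleoside class in shDRG2 cells had 3 of each without shDRG2 replicate 1 or IFN-γ-treated shDRG2 replicate 2, and in pLKO cells 3 of each without pLKO replicate 1 or IFN-γ-treated pLKO replicate 2. The ion class in pLKO cells had 2 rises and no fall without pLKO replicate 2, and no call without IFN-γ-treated pLKO replicate 2. Mitochondrial carriers had 4 rises and 5 falls in shDRG2 cells and 4 and 6 in pLKO cells with upper-quartile scaling. The vitamin and lipid class in shDRG2 cells had no rise and 2 falls without shDRG2 replicate 2 or IFN-γ-treated shDRG2 replicate 1, as it had in pLKO cells without pLKO replicate 1.

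**Figure D4:**
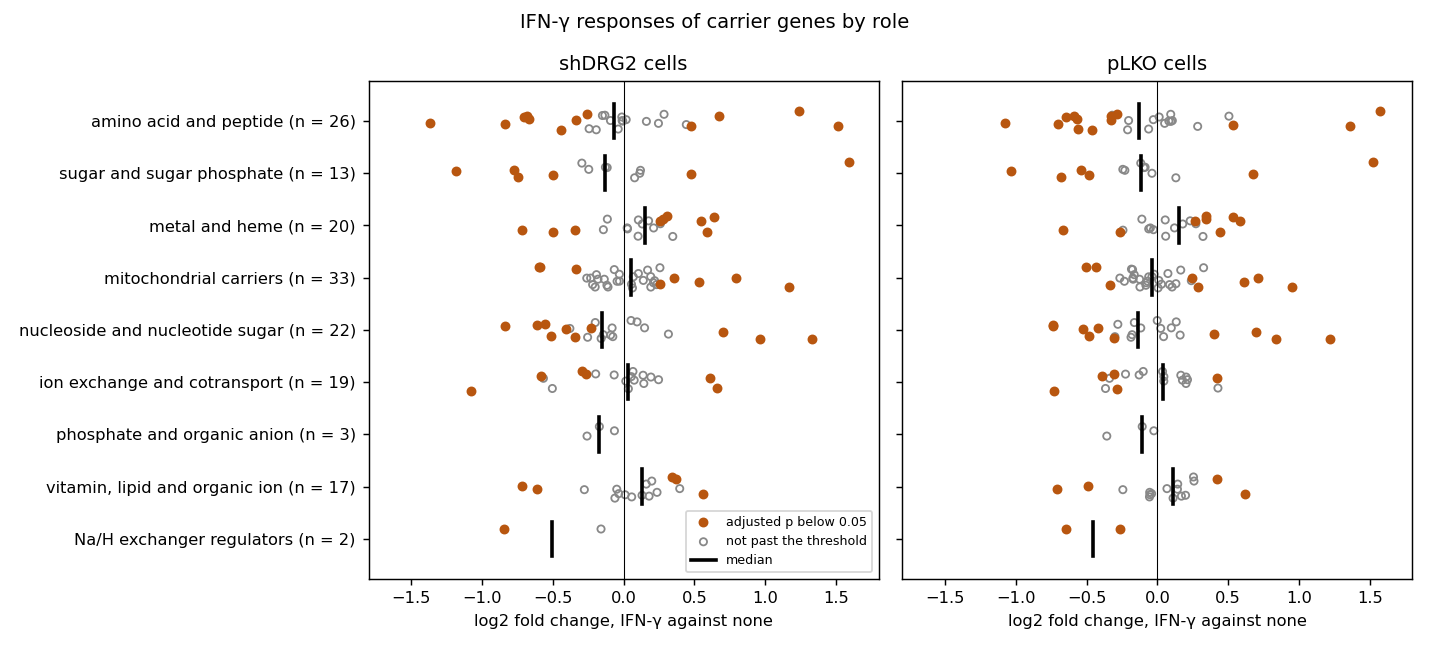
Log2 fold change of IFN-γ against none (x axis) for the 155 carrier genes by role (y axis), in shDRG2 cells on the left and pLKO cells on the right. Each point is a gene, filled orange where the adjusted p was below 0.05, and the black bar is the class median. Each of the larger classes holds genes that rose and genes that fell.

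Of the 5 Slc6 carriers, which bring in small amino acids and related solutes with sodium, 1 rose and 4 fell in each line. Slc6a9, the glycine carrier GlyT1 (chromosome 4, 117834506 to 117875198, plus strand), was the one that rose. It stood at 66.7 and 48.7 CPM in shDRG2 cells with IFN-γ, against 22.7 and 17.5 CPM without it, and at 48.3 and 40.1 CPM in pLKO cells with IFN-γ, against 16.7 and 17.8 CPM without it. Treated libraries lay far above untreated ones in both lines, 2.86-fold in shDRG2 cells (log2 1.52, SE 0.17, adjusted p = 6.77e-05) and 2.57-fold in pLKO cells (log2 1.36, SE 0.17, adjusted p = 0.00018). Of its exon length 27.8% overlaps Ccdc24 on the opposite strand, and since the strandedness of the libraries is not stated, reads there could come from either gene. The taurine carrier Slc6a6 stood at 933 and 853 CPM in treated and 1199 and 1229 CPM in untreated shDRG2 cells (log2 -0.44, adjusted p = 0.00211), and at 909 and 839.5 CPM in treated and 1190.3 and 1221 CPM in untreated pLKO cells (log2 -0.46, adjusted p = 0.00186). The creatine carrier Slc6a8 stood at 51.8 and 48.8 CPM in treated and 93.7 and 86.2 CPM in untreated shDRG2 cells (log2 -0.84, adjusted p = 0.000111), and at 67.8 and 56.4 CPM in treated and 105 and 97.2 CPM in untreated pLKO cells (log2 -0.70, adjusted p = 0.000414). The neutral amino acid carriers Slc6a15 and Slc6a17, which are best known in neurons, fell as well. Slc6a15 gave -0.68 in shDRG2 cells and -0.59 in pLKO cells, and Slc6a17 gave -0.71 and -0.65, on the log2 scale. All 5 passed in all 14 alternative fits in both lines.

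Slc38a1, the sodium-coupled glutamine carrier SNAT1 (chromosome 15, 96571418 to 96642913, minus strand), fell to 389.7 and 369.6 CPM in shDRG2 cells with IFN-γ, against 610.3 and 598 CPM without it, and to 421 and 394 CPM in pLKO cells with IFN-γ, against 605 and 601 CPM without it. All treated libraries lay below all untreated ones (log2 -0.67, SE 0.07, adjusted p = 7.22e-05 in shDRG2 cells, and log2 -0.57, SE 0.07, adjusted p = 0.000271 in pLKO cells). Its relative Slc38a2 (SNAT2) passed in neither line (0.16 in shDRG2 cells and 0.09 in pLKO cells). The whole amino acid class summed to 3517 and 3145 CPM in shDRG2 cells with IFN-γ, against 4116 and 3838 CPM without it, and to 3291 and 2995 CPM in pLKO cells with IFN-γ, against 3963 and 3934 CPM without it. Slc6a6 and Slc38a1 alone made up 1322 and 1223 CPM in treated and 1809 and 1827 CPM in untreated shDRG2 cells. Without these genes, the other 24 summed to 2194 and 1922 CPM in treated and 2307 and 2011 CPM in untreated shDRG2 cells, which overlap. In pLKO cells the other 24 summed to 1962 and 1762 CPM with IFN-γ, against 2168 and 2112 CPM without it, which do not overlap.

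Slc7a8 (LAT2), whose values in every library are given with the knockdown, had the largest fall of any member in both lines. Its mean in treated shDRG2 cells lay under 5 CPM, and among the 148 members with every group mean at 5 CPM or more the largest fall was that of Slc37a1. Slc7a8 fell 2.57-fold in shDRG2 cells (log2 -1.36, SE 0.15, adjusted p = 5.53e-05) and 2.11-fold in pLKO cells (log2 -1.07, SE 0.14, adjusted p = 0.000244), and both calls passed in all 14 alternative fits. The related light chain Slc7a5 (LAT1) had 341 and 281 CPM in treated and 409 and 327 CPM in untreated shDRG2 cells and did not pass (log2 -0.24, adjusted p = 0.203). In pLKO cells it had 291 and 244 CPM with IFN-γ, against 415 and 375 CPM without it, and fell (log2 -0.56, adjusted p = 0.0106), a call that ended without pLKO replicate 1 (adjusted p = 0.0688) and without IFN-γ-treated pLKO replicate 2 (0.0754). The heavy chain that these light chains need, Slc3a2, gave -0.09 in shDRG2 cells and -0.20 in pLKO cells and passed in neither. The cystine-glutamate exchanger Slc7a11 (xCT) had 50.2 and 39.3 CPM in treated and 51.1 and 46.7 CPM in untreated shDRG2 cells (log2 -0.13, adjusted p = 0.621). In pLKO cells it had 46.3 and 35.7 CPM with IFN-γ, against 59.9 and 42.3 CPM without it (log2 -0.32, adjusted p = 0.22). Treated and untreated libraries of Slc7a11 overlapped in both lines, although within each replicate number the treated library was the lower. The neutral amino acid carriers Slc1a5 and Slc1a4 differed in their calls: Slc1a5 passed in neither line (0.25 and 0.05), whereas Slc1a4 rose in shDRG2 cells (log2 0.68, adjusted p = 0.0144), a call that ended without shDRG2 replicate 2 (adjusted p = 0.0995) and without IFN-γ-treated shDRG2 replicate 1 (0.141), and did not pass in pLKO cells (log2 0.50, adjusted p = 0.063).

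Among peptide carriers, Slc15a2, the proton-coupled oligopeptide carrier PEPT2 (chromosome 16, 36750177 to 36784962, minus strand), had the largest rise of any member in pLKO cells. It was at 21.8 and 31.8 CPM in shDRG2 cells with IFN-γ, against 10.8 and 11.97 CPM without it (log2 1.24, SE 0.24, adjusted p = 0.0026). In pLKO cells the level was 19.4 and 30.9 CPM with IFN-γ, against 7.36 and 9.60 CPM without it (log2 1.57, SE 0.24, adjusted p = 0.00078). Treated replicates were far apart, yet every treated library lay above every untreated one. The endolysosomal histidine and peptide carrier Slc15a4 went the other way, by -0.25 in shDRG2 cells and -0.29 in pLKO cells. The Slc15a4 call in shDRG2 cells ended with no filter on low counts (adjusted p = 0.0832), in DESeq2 (0.0712), without shDRG2 replicate 1 (0.0884), without shDRG2 replicate 2 (0.0994), without IFN-γ-treated shDRG2 replicate 1 (0.136) and without IFN-γ-treated shDRG2 replicate 2 (0.0837), and that in pLKO cells ended without pLKO replicate 2 (adjusted p = 0.125), without IFN-γ-treated pLKO replicate 1 (0.086) and without IFN-γ-treated pLKO replicate 2 (0.0734).

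Among sugar carriers, Slc2a6 encodes GLUT6, a hexose carrier of lysosomal membranes (chromosome 2, 27021363 to 27027998, minus strand). It reached 70.8 and 55.9 CPM in shDRG2 cells with IFN-γ, against 23.04 and 18.8 CPM without it, and 58.8 and 55.5 CPM in pLKO cells with IFN-γ, against 17.7 and 22.2 CPM without it. Treated and untreated libraries were far apart in both lines, 3.02-fold in shDRG2 cells (log2 1.59, SE 0.15, adjusted p = 1.71e-05) and 2.87-fold in pLKO cells (log2 1.52, SE 0.15, adjusted p = 2.85e-05). Slc2a4 went the other way, -0.77 in shDRG2 cells (adjusted p = 0.00249) and -0.54 in pLKO cells (adjusted p = 0.0261). The Slc2a4 call in pLKO cells ended without pLKO replicate 2 (adjusted p = 0.172), without IFN-γ-treated pLKO replicate 1 (0.087) and without IFN-γ-treated pLKO replicate 2 (0.0857). The fructose carrier Slc2a5 stood at 47.04 and 42.3 CPM in treated and 67.4 and 58.7 CPM in untreated shDRG2 cells (log2 -0.50, adjusted p = 0.00215), and at 40.6 and 37.9 CPM in treated and 53.9 and 55.7 CPM in untreated pLKO cells (log2 -0.48, adjusted p = 0.00327). Slc2a1 passed in neither line (-0.13 in shDRG2 cells and -0.09 in pLKO cells).

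The sugar phosphate exchangers Slc37a1 and Slc37a2, which sit in the endoplasmic reticulum, both fell. Slc37a1 (chromosome 17, 31286792 to 31350739, plus strand) had 7.16 and 6.81 CPM in shDRG2 cells with IFN-γ, against 15.8 and 16 CPM without it, and 8.90 and 8.01 CPM in pLKO cells with IFN-γ, against 16.2 and 18.4 CPM without it. Treated libraries lay far below untreated ones, 2.27-fold in shDRG2 cells (log2 -1.19, SE 0.12, adjusted p = 3.28e-05) and 2.05-fold in pLKO cells (log2 -1.04, SE 0.12, adjusted p = 9.24e-05). Slc37a2 gave -0.74 in shDRG2 cells (adjusted p = 0.00106) and -0.68 in pLKO cells (adjusted p = 0.00193), on the log2 scale. Slc37a3, the other measured member, gave 0.08 and 0.13 and passed in neither. Slc50a1, a sugar efflux carrier, rose by 0.47 in shDRG2 cells (adjusted p = 0.0124) and by 0.67 in pLKO cells (adjusted p = 0.0021). The Slc50a1 call in shDRG2 cells ended without shDRG2 replicate 2 (adjusted p = 0.0814) and without IFN-γ-treated shDRG2 replicate 1 (0.0824).

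**Figure D5:**
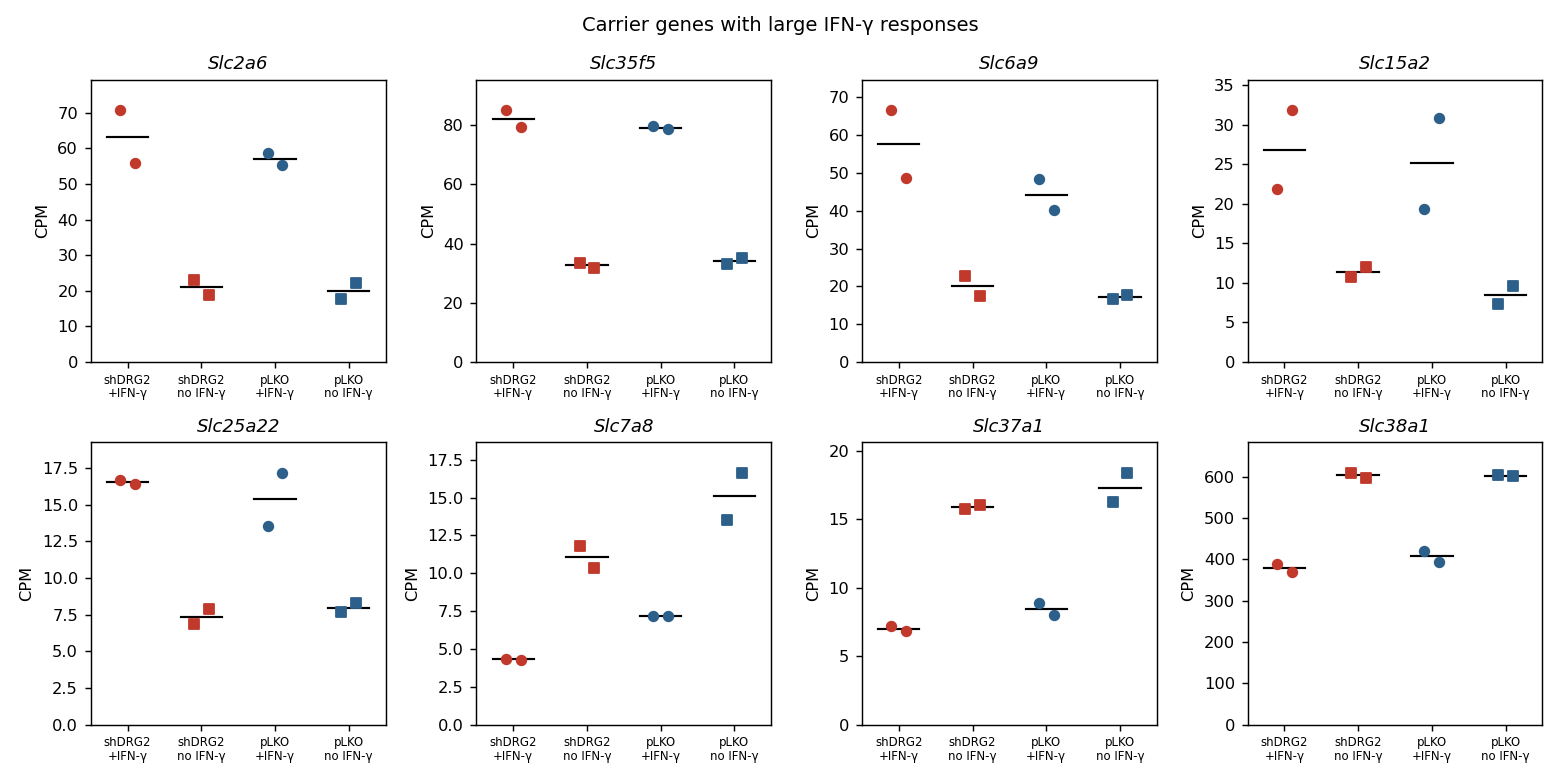
CPM (y axis, from 0) of 8 carrier genes with large IFN-γ changes, by group (x axis). Each point is a library, red for shDRG2 and blue for pLKO, circles with IFN-γ and squares without it, and the bar is the group mean. In each panel the treated and untreated libraries of a line do not overlap, for instance 55.9 CPM or more against 23.0 CPM or less for Slc2a6 in shDRG2 cells.

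Iron and heme carriers moved in both directions. Besides Slc40a1 (ferroportin), Slc25a28, the mitochondrial iron importer mitoferrin 2, rose to 30.7 and 30.8 CPM in treated shDRG2 cells, against 18.2 and 17.3 CPM in untreated ones (log2 0.79, adjusted p = 0.000116). Levels in pLKO cells were 30.6 and 29.9 CPM with IFN-γ, against 19.8 and 17.3 CPM without it (log2 0.71, adjusted p = 0.00029). Its relative mitoferrin 1, Slc25a37, passed in neither line (-0.07 and -0.18). The lysosomal heme carrier Slc48a1 fell to 135 and 127 CPM in treated shDRG2 cells, against 228 and 203 CPM in untreated ones (log2 -0.72, adjusted p = 0.000124). The pLKO level was 119.8 and 113 CPM with IFN-γ, against 192 and 177 CPM without it (log2 -0.67, adjusted p = 0.000246). Slc25a28 and Slc48a1 passed in all 14 alternative fits in both lines, with no overlap between treated and untreated libraries. The iron importer Slc11a2 (DMT1) had 34.8 and 35.4 CPM in treated and 52.3 and 46.5 CPM in untreated shDRG2 cells (log2 -0.49, adjusted p = 0.00183), and 43.05 and 38.5 CPM in treated and 49.96 and 48.1 CPM in untreated pLKO cells (log2 -0.27, adjusted p = 0.0465). The call in pLKO cells ended with no filter on low counts (adjusted p = 0.0512), in DESeq2 (0.0698), without pLKO replicate 1 (0.187), without pLKO replicate 2 (0.115), without IFN-γ-treated shDRG2 replicate 1 (0.0702), without IFN-γ-treated shDRG2 replicate 2 (0.078) and without IFN-γ-treated pLKO replicate 2 (0.279).

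Zinc carriers that passed all rose. Slc30a4, which loads zinc into vesicles, gave 0.64 in shDRG2 cells (adjusted p = 0.000704) and 0.53 in pLKO cells (adjusted p = 0.0026), and passed in all 14 alternative fits. It was the only 1 of 6 Slc30 members that passed in either line. Of the 9 Slc39 importers, 3 rose in both lines and none fell. That is 33.3%, near the 31.4% of all genes tested that passed in shDRG2 cells and the 28.1% in pLKO cells. Among genes at a mean of 5 CPM or more these shares were 34.8% and 31.4%. The 3 that rose were Slc39a1 (0.31 in shDRG2 cells and 0.35 in pLKO cells), Slc39a9 (0.26 and 0.26) and Slc39a13 (0.28 and 0.34). All 3 had small changes whose calls ended on leaving out single libraries. That of Slc39a1 ended without shDRG2 replicate 2 (adjusted p = 0.141), without IFN-γ-treated shDRG2 replicate 1 (0.143) and without IFN-γ-treated shDRG2 replicate 2 (0.0542) in shDRG2 cells, and without pLKO replicate 1 (adjusted p = 0.0959) and without IFN-γ-treated pLKO replicate 1 (0.0683) in pLKO cells. That of Slc39a9 ended with upper-quartile scaling (adjusted p = 0.0523), without shDRG2 replicate 2 (0.176), without IFN-γ-treated shDRG2 replicate 1 (0.149) and without IFN-γ-treated shDRG2 replicate 2 (0.105) in shDRG2 cells, and with upper-quartile scaling (adjusted p = 0.0547), in DESeq2 (0.0566), without pLKO replicate 1 (0.0542), without pLKO replicate 2 (0.207), without IFN-γ-treated shDRG2 replicate 1 (0.0618), without IFN-γ-treated shDRG2 replicate 2 (0.0522), without IFN-γ-treated pLKO replicate 1 (0.145) and without IFN-γ-treated pLKO replicate 2 (0.0658) in pLKO cells. That of Slc39a13 ended with library size as the sole scaling (adjusted p = 0.0622), with upper-quartile scaling (0.0652), with no filter on low counts (0.0577), in DESeq2 (0.0953), without shDRG2 replicate 1 (0.0953), without shDRG2 replicate 2 (0.118), without IFN-γ-treated shDRG2 replicate 1 (0.184) and without IFN-γ-treated shDRG2 replicate 2 (0.0608) in shDRG2 cells, and without pLKO replicate 1 (adjusted p = 0.102) and without IFN-γ-treated pLKO replicate 2 (0.117) in pLKO cells. The magnesium carrier Slc41a1 rose by 0.59 in shDRG2 cells (adjusted p = 0.000598) and by 0.44 in pLKO cells (adjusted p = 0.00419), and passed in all 14 alternative fits.

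Among mitochondrial carriers the largest change was in Slc25a22, which brings glutamate into mitochondria (chromosome 7, 141429744 to 141437892, minus strand). It stood at 16.7 and 16.4 CPM in shDRG2 cells with IFN-γ, against 6.87 and 7.87 CPM without it, and at 13.5 and 17.2 CPM in pLKO cells with IFN-γ, against 7.67 and 8.29 CPM without it. Treated libraries lay well above untreated ones (log2 1.17, SE 0.14, adjusted p = 0.000124 in shDRG2 cells, and log2 0.95, SE 0.14, adjusted p = 0.000567 in pLKO cells). The paired aspartate-glutamate exchangers of the malate-aspartate shuttle went opposite ways. Slc25a13 (citrin) fell to 124 and 135 CPM in treated shDRG2 cells, against 194 and 197 CPM in untreated ones (log2 -0.60, adjusted p = 0.000298). In pLKO cells it was 145 and 133 CPM with IFN-γ, against 204 and 189 CPM without it (log2 -0.50, adjusted p = 0.00107). Slc25a12 (aralar) rose to 88.8 and 85.8 CPM in treated shDRG2 cells, against 70.1 and 66.1 CPM in untreated ones (log2 0.36, adjusted p = 0.00394). In pLKO cells the level was 90.8 and 92.2 CPM with IFN-γ, against 75.04 and 79.1 CPM without it (log2 0.25, adjusted p = 0.0281), and that call ended with library size as the sole scaling (adjusted p = 0.0569), with upper-quartile scaling (0.0515), in DESeq2 (0.0502), without pLKO replicate 1 (0.178), without pLKO replicate 2 (0.0602), without IFN-γ-treated pLKO replicate 1 (0.065) and without IFN-γ-treated pLKO replicate 2 (0.124). For both genes the treated and untreated libraries of a line did not overlap.

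The citrate carrier Slc25a1 rose to 134 and 111 CPM in treated shDRG2 cells, against 93.9 and 75.7 CPM in untreated ones (log2 0.53, adjusted p = 0.00711), a call that ended without shDRG2 replicate 2 (adjusted p = 0.0504) and without IFN-γ-treated shDRG2 replicate 1 (0.0768). Levels in pLKO cells were 114 and 104 CPM with IFN-γ, against 68.8 and 73.6 CPM without it (log2 0.61, adjusted p = 0.00368), with no overlap in either line. The dicarboxylate carrier Slc25a10 went the other way, -0.59 in shDRG2 cells (adjusted p = 0.00131) and -0.43 in pLKO cells (adjusted p = 0.00919), the pLKO call ending without pLKO replicate 1 (adjusted p = 0.0636) and without IFN-γ-treated pLKO replicate 2 (0.0781). The abundant phosphate carrier Slc25a3 and ADP/ATP exchanger Slc25a4 passed in neither line.

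Among Slc35 genes the largest change was in Slc35f5, an orphan member of the family (chromosome 1, 125560595 to 125595820, plus strand). It reached 85.1 and 79.3 CPM in shDRG2 cells with IFN-γ, against 33.4 and 31.9 CPM without it, and 79.6 and 78.6 CPM in pLKO cells with IFN-γ, against 33.03 and 35.03 CPM without it. Replicates were close and treated libraries stood far above untreated ones (log2 1.33, SE 0.08, adjusted p = 5.04e-07 in shDRG2 cells, and log2 1.22, SE 0.08, adjusted p = 1.1e-06 in pLKO cells). Slc35e2, another orphan member, was at 45.5 and 50.3 CPM in treated and 22.4 and 26.8 CPM in untreated shDRG2 cells (log2 0.97, adjusted p = 0.000229), and at 45.8 and 53.6 CPM in treated and 25.3 and 30.4 CPM in untreated pLKO cells (log2 0.84, adjusted p = 0.000655). Slc35a2, the UDP-galactose carrier of the Golgi, rose by 0.70 in shDRG2 cells and by 0.69 in pLKO cells. In the same family Slc35e3 fell by 0.84 and 0.73, Slc35f1 fell by 0.61 and 0.74, and Slc35e1 fell by 0.51 and 0.48, in shDRG2 and pLKO cells. These 6 genes passed in all 14 alternative fits in both lines. The equilibrative nucleoside carrier Slc29a1 fell by 0.41 in shDRG2 cells, a call that ended without shDRG2 replicate 1 (adjusted p = 0.134), without IFN-γ-treated shDRG2 replicate 1 (0.127) and without IFN-γ-treated shDRG2 replicate 2 (0.0594), and by 0.53 in pLKO cells, a call that ended without pLKO replicate 1 (adjusted p = 0.0542) and without IFN-γ-treated pLKO replicate 2 (0.06).

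Among ion and vitamin carriers, Slc26a11, an anion exchanger family member, which is a member only through its untreated groups, was at 3.46 and 3.99 CPM in treated and 8.24 and 7.56 CPM in untreated shDRG2 cells (log2 -1.08, adjusted p = 0.000808). The pLKO level was 4.19 and 3.93 CPM with IFN-γ, against 5.93 and 7.51 CPM without it (log2 -0.73, adjusted p = 0.00989), a call that ended without pLKO replicate 2 (adjusted p = 0.0878) and without IFN-γ-treated pLKO replicate 2 (0.0605). The sulfate carrier Slc26a2 rose by 0.61 in shDRG2 cells and by 0.42 in pLKO cells, the pLKO call ending without IFN-γ-treated pLKO replicate 2 (adjusted p = 0.0564). The thiamine carrier Slc19a2 gave -0.61 in shDRG2 cells (adjusted p = 0.0008) and -0.71 in pLKO cells (adjusted p = 0.000317), and the polyamine carrier Slc18b1 gave -0.71 (adjusted p = 0.00022) and -0.49 (adjusted p = 0.0028). Both genes passed in all 14 alternative fits in both lines. In the inorganic ion class, Slc8b1 rose by 0.66 in shDRG2 cells, a call kept in 10 of 14 alternative fits. It did not pass in pLKO cells (log2 0.43). In the vitamin, lipid and organic ion class, Slc27a1 rose by 0.56 in shDRG2 cells and by 0.62 in pLKO cells. Its calls were kept in 10 and 12 of the 14 fits. Of the scaffolds, Slc9a3r2 fell by 0.84 in shDRG2 cells and by 0.64 in pLKO cells.

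The response to IFN-γ was then compared between the lines by the interaction of line and treatment. No member passed (0 of 155 in edgeR and 0 in DESeq2), against 0.00741% of all genes tested. At an unadjusted p below 0.05 there were 3: Slc2a3, a neuronal-type glucose carrier (difference of log2 changes, shDRG2 minus pLKO, 0.35, 95% interval 0.07 to 0.63), the sodium-potassium-chloride cotransporter Slc12a2 (0.32, 0.05 to 0.59) and Slc35b1 (-0.25, -0.49 to -0.02). For 152 of the 155 the interval lay within -1 to 1, and its median width was 0.634. A member that passed in a single line, such as Slc7a5 or Slc1a4, was therefore not shown to respond differently in the other.

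Lists of genes around the carriers were read for the same contrasts. Of 26 tested genes of the ATF4 response to amino acid shortage, 18 rose and none fell in shDRG2 cells (median log2 fold change 0.47), and 13 rose and none fell in pLKO cells (median 0.30). Over all genes tested, 31.4% passed in shDRG2 cells and 28.1% in pLKO cells, with medians of 0.00 and 0.01. The largest rises were in the stress-induced transcription factors Atf3 (3.20 in shDRG2 cells and 2.59 in pLKO cells) and Cebpb (1.54 and 1.43) and the stress-induced regulator Nupr1 (2.19 and 2.12). Asparagine synthetase, Asns, a textbook target, gave 0.48 in shDRG2 cells (adjusted p = 0.00771) and 0.33 in pLKO cells (adjusted p = 0.0465). Of 11 carriers known as ATF4 targets, all tested and 9 of them members, 2 rose and none fell in shDRG2 cells, and 1 rose and 2 fell in pLKO cells.

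Of 16 tested partners of metal handling, 4 rose and 4 fell in each line. The ferritin heavy chain Fth1, which stores iron, was at 941 and 920.3 CPM in treated and 1751 and 1580.0 CPM in untreated shDRG2 cells (log2 -0.84, adjusted p = 0.000272), and at 998 and 820.0 CPM in treated and 1651 and 1420.1 CPM in untreated pLKO cells (log2 -0.76, adjusted p = 0.000634). The metallothionein Mt2 rose (1.28 in shDRG2 cells and 1.24 in pLKO cells). The serum iron carrier transferrin, Trf, fell with IFN-γ (-0.97 and -0.78), and between the lines it was at 4.76 and 4.38 CPM in shDRG2 cells, against 10.02 and 10.98 CPM in pLKO cells (log2 -1.2, adjusted p = 0.00528), and at 2.53 and 2.16 CPM in shDRG2 cells with IFN-γ, against 5.71 and 6.52 CPM in pLKO cells with IFN-γ (log2 -1.39, adjusted p = 0.00357). Trf overlaps the annotated gene Gm20425, so its level is uncertain.

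For the lists that follow, too, the share called over all genes tested was 31.4% in shDRG2 cells and 28.1% in pLKO cells. Of 29 tested carriers with other symbols, 41.4% passed in each line: 6 rose and 6 fell in shDRG2 cells, and 7 rose and 5 fell in pLKO cells. The prostaglandin carrier Slco2a1 was at 11.2 and 6.89 CPM in treated and 0.0933 and 0.116 CPM in untreated shDRG2 cells, and at 5.15 and 5.39 CPM in treated and 0.0306 and 0.0626 CPM in untreated pLKO cells, and rose in both (adjusted p = 7.01e-07 in shDRG2 cells and 1.63e-06 in pLKO cells). Unc93b1, which carries nucleic acid-sensing receptors to endosomes, rose by 2.45 in shDRG2 cells and 2.02 in pLKO cells, and the mitochondrial carrier Ucp2 rose by 1.37 and 1.43. Of 7 tested genes of tryptophan and arginine use, 3 rose and 1 fell in shDRG2 cells, and 4 rose and 1 fell in pLKO cells. The tryptophan-degrading enzyme Ido1 gave 4.16 and 5.03, its relative Ido2 gave 2.33 and 2.26, the tryptophan-tRNA ligase Wars gave 1.71 and 1.53, and argininosuccinate synthase, Ass1, gave -1.32 and -1.29. Of 16 tested NRF2 targets 7 rose and 2 fell in shDRG2 cells (56.2% called), and 6 rose and 2 fell in pLKO cells, with the oxidative stress response gene Osgin1 at 1.9 and 1.73 and Gclm, a subunit of the enzyme that begins glutathione synthesis, at 1.19 and 0.94. Of 7 tested genes of the osmolyte response 2 rose and 1 fell in each line, the one that fell being Slc6a6. Those that rose were the aldose reductase Akr1b3 (0.60 and 0.54) and the chaperone Hspa4l (0.45 and 0.34).

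The motifs were counted in the windows of all genes as well. Over all 32851 windows, 7.02% held GAS, 2.98% IRF and 3.45% CARE. Over the 159 windows of 119 members the shares were 4.4%, 1.89% and 1.89%. Of the 24 windows of 17 genes that rose in both lines, 0 held GAS, 1 held IRF and 1 held CARE, and of the 26 windows of 17 genes that fell in both lines, 0 held GAS, 1 held IRF and 0 held CARE. A match is a description of the letters only.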

How the data were processed

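RNA was taken from B16F10 cells at a RIN above 8.5, per the labels' protocols, which give both a HiSeq1500 with reads of 2 × 100 bases and another instrument, so the platform is uncertain. The authors deposited 1 table of estimated counts per gene. STAR and Salmon 1.5.2 and the build mm10 are listed in the submitters' processing notes, without their roles. Of the deposited values, 86.37% were whole within 0.0015, and all were rounded. Estimated counts divide reads between genes that share sequence, so overlapping genes are uncertain. The 27 entries whose symbols had become dates, 0.204% to 0.212% of a library, stayed out of the tests and their scaling. They are included in the library totals, the members' share, the rule's mean CPM and the marker levels.

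Genes were filtered with filterByExpr, scaled by TMM (factors 0.973 to 1.04) and fitted with edgeR 4.0.16 (quasi-likelihood F test, R 4.3.3) with 1 mean per group over all 8 libraries. The residual degrees of freedom were 4 and the common biological coefficient of variation was 8.49%. P-values were adjusted by Benjamini-Hochberg over 13500 genes, with calls at 0.05. An SE is the log2 fold change divided by the square root of F. CPM of single libraries are TMM-scaled, and the rule's mean CPM and the marker levels are not. The fits were tested on simulated data. Positions are GENCODE M21 (GRCm38), and promoter windows are RefSeq's. Replicates differed by more than counting noise (chi-square per degree of freedom 11.9 to 16.0), so no pair was merged as 1 library deposited more than once, which does not show that they were separate cultures. Alternatives were 3 other scalings, no filter, DESeq2 1.42.0, a replicate block, other level limits and leaving out each library.

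The members and lists were chosen with earlier results of these data known. Genes named were those called in a knockdown comparison, the 12 largest rises and falls of each IFN-γ comparison and those beside the level limit. Some of the most abundant members by role, though no anion carrier, and the largest called values of each list were named too. Other members, such as Slc7a11, Slc25a12 and the Slc39 genes, were named for their role after their values were seen. A marker of the immune list is not reported here.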

Additional observations from a re-analysis of the deposited data

How the results depend on the processing

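None of the members' calls changed sign in 14 alternatives, but the balance of rises and falls did, as the report gives by library and role. Between the lines, the number of members called was 5 without IFN-γ and 6 with it. It became 10 and 13 with no filter on low counts, and 3 with IFN-γ when library size was the sole scaling. Leaving out 1 library at a time gave 1 to 5 without IFN-γ and 1 to 6 with it, and for the IFN-γ comparisons 37 to 59 in shDRG2 cells and 33 to 57 in pLKO cells. The cause was not tested, except that a fit without a library has fewer samples. DESeq2 called 6 and 8 between the lines, 53 for IFN-γ in shDRG2 cells and 52 in pLKO cells. The difference between the responses gave 0 in all alternatives. In every one of 14 alternatives 1 of 5 and 1 of 6 knockdown calls passed, and 35 of 57 IFN-γ calls in shDRG2 cells and 30 of 56 in pLKO cells.

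With the replicate number as a block, 11 members passed between the lines without IFN-γ (4 higher and 7 lower in shDRG2 cells), 16 with it, 77 for IFN-γ in shDRG2 cells and 75 in pLKO cells. Slc25a37 then passed in both knockdown comparisons (adjusted p = 0.00303 and 0.00845), and Slc7a11 for IFN-γ in pLKO cells (adjusted p = 0.0133). Deviations of same-numbered libraries correlated at 0.107 to 0.274 over the 6 pairs of groups. With 2 numbers, and labels that tie them to no batch or culture, the design does not say whether they mark pairs, and the fit without the block is the one reported. With 2 libraries a group, and 25422758 to 36654519 counts each, small changes of the members near 5 CPM could go undetected.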

Other observations

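Some carriers differed between replicate numbers in the same way in all 4 groups. Replicate 1 was above replicate 2 in every group for 33 of the 155 members (21.3%), and below it in every group for 17, against 2285 (16.9%) and 2147 of all 13500 genes tested. Among the 9 members known as ATF4 targets, 5 were higher in replicate 1 in every group: the cystine exchanger Slc7a11, its heavy chain partner Slc3a2, the large neutral amino acid exchanger Slc7a5, the cationic amino acid carrier Slc7a1 and the glutamine carrier Slc38a2. None was lower in replicate 1 in every group. These genes were chosen after their values were seen, and the labels do not say what a replicate number marks.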
